A study of Mus musculus with 15 samples.

Results

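The transcriptional response of macrophages lacking STAT5 to tumor cell medium was read from 6 of the 15 RNA-seq libraries of the study, chosen by their labels. These are the 3 libraries of STAT5 cKO bone marrow-derived macrophages (BMDMs) in 4T1 CM, the conditioned medium of 4T1 mouse mammary carcinoma cells, and the 3 libraries of the same mice, numbered 114, 115 and 116, in DMEM. The question of the comparison is which part of the response to tumor medium runs when STAT5 is absent. BMDMs from 3 STAT5 cKO and 2 STAT5 fl/fl mice on the BALB/c background, labelled as 6 wk old, were exposed for 2 h to serum-free DMEM, to rmGM-CSF (recombinant mouse granulocyte-macrophage colony-stimulating factor) at 20 ng/mL, or to 4T1 CM. All mice carried floxed Stat5 alleles. The STAT5 cKO mice also carried Csf1r-iCre, a Cre recombinase under the promoter of the macrophage growth factor receptor, which is active in myeloid cells and not restricted to macrophages. A further STAT5 fl/fl replicate had been removed at quality control, per the study's methods. 4T1 CM was collected from serum-starved tumor cells and the control was medium that no cell had conditioned, so factors secreted by the tumor cells, nutrients they had used and the base medium cannot be told apart. Per the study's methods the 4T1 cells were grown in RPMI, and the serum-free medium in which the CM was collected is not given in the sources used here.

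Macrophages read soluble tumor products through cytokine, growth factor, nucleotide, lipid and pattern receptors. Within the first hours, kinase cascades switch on immediate early genes, which encode transcription factors of the AP-1, EGR and NR4A families, together with feedback inhibitors that shut the cascades off again. STAT5A and STAT5B are transcription factors phosphorylated by JAK2 below the GM-CSF receptor, and the related STAT3 acts below receptors of the IL-6 and IL-10 type. Macrophages in tumors are known for making cytokines, growth factors of vessels and matrix enzymes, and for presenting antigen or restraining T cells.

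Both targeted genes had 0 to 4 counts in each of the STAT5 cKO libraries. Stat5a had 2, 2 and 0 counts with DMEM and 3, 1 and 0 counts with 4T1 CM, and Stat5b had 1, 0 and 2 counts with DMEM and 2, 4 and 1 counts with 4T1 CM, against at least 637 counts of either gene in each STAT5 fl/fl library. The 6 libraries held 20181661 to 22883108 counts, so that 3 counts, the floor used for detection, equal 0.131 to 0.149 CPM, the counts of a gene relative to the library total scaled to 1000000. All 12 macrophage markers were expressed, with a summed level of 32380 to 38310 normalized CPM with DMEM and 38480 to 48400 with 4T1 CM. Of these markers 4 (33.3%) passed the test described below, all higher with 4T1 CM. Over all tested genes 39.4% passed, 20.3% of them higher and 19.1% lower as shares of those tested. Of the defining markers of other cells, 8 of 11 lymphocyte and 4 of 11 neutrophil genes had no count in any of the 6 libraries. The summed level of neutrophil markers was 6.2 to 10 CPM with DMEM and 10.3 to 13 CPM with 4T1 CM, that of mast cell and basophil markers 4.86 to 7.57 and 1.65 to 4.59 CPM, and that of tumor epithelial markers 0 to 0.0435 and 1.23 to 2.17 CPM. Most of the last was Cdh1, with 1 count over the DMEM libraries and 96 over the 4T1 CM libraries. The neutrophil sum was mostly Mmp8 (128, 176 and 222 counts with DMEM, 197, 172 and 241 with 4T1 CM). Its member S100a8 had 3, 10 and 16 counts with DMEM and 16, 50 and 40 with 4T1 CM. The mast cell and basophil sum was mostly Kit (156, 172 and 113 counts with DMEM, 86, 25 and 36 with 4T1 CM). Cpa3, Fcer1a, Ms4a2 and Prss34 had no count in the 6 libraries. Fibroblast markers summed to 4.87 to 8.11 CPM with DMEM and 3.78 to 11.7 CPM with 4T1 CM. Dendritic cell markers summed to 1.56 to 2.04 CPM with DMEM and 1.84 to 2.99 CPM with 4T1 CM. The part of these traces in the results was not tested. The mitochondrial share of counts was 1.48% to 1.71% with DMEM and 1.65% to 1.995% with 4T1 CM. The 4T1 CM library of mouse 115 stood apart to a small degree. Of 8879 genes with a mean of at least 10 CPM in either group, 84 were more than 1.5-fold higher and 32 more than 1.5-fold lower in it than in the mean of the other 2 libraries of its group (1.31% of genes), against 0.293% to 0.732% for the other 5 libraries. Counts of called genes, and some of the single genes and list medians that moved without mouse 115, are given below also without it.

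4T1 CM moved a large part of the transcriptome within 2 h in the absence of STAT5. Of 13005 genes that exceeded 1 CPM in 2 or more of the 15 libraries, 5130 (39.4%) passed an adjusted p of 0.01 in edgeR's quasi-likelihood test with the mouse as a block and Benjamini-Hochberg adjustment. Of these, 2643 genes (20.3% of those tested) were higher and 2487 (19.1%) were lower with 4T1 CM. All 3 mice moved in the called direction for 5108 of the 5130 genes, which a call from these same mice favors. The 3 libraries of each group did not overlap for 4975 called genes, or 97%, against 54.5% of all tested genes. The median log2 fold change over all tested genes was 0.01, a value that relative log expression normalization holds near 0. The balance of rises and falls depends on this scaling. Its factors were 1.064 to 1.079 with DMEM and 0.9515 to 0.9782 with 4T1 CM. Without mouse 115, 2109 genes were higher and 1880 lower.

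At this scaling the numbers of genes that rose and fell were similar, but the sizes were not. A test against a 2-fold change was passed by 591 genes that rose (4.54% of those tested) and by 143 that fell (1.1%), a ratio of 4.13. Without mouse 115, 634 genes passed it in either direction. Fitted changes of more than 8-fold were reached by 182 of the genes that rose and 10 of those that fell, and changes of more than 16-fold by 87 and 2. The plot of fold change against expression shows this upward tail across the range of expression.

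**Figure D1:**
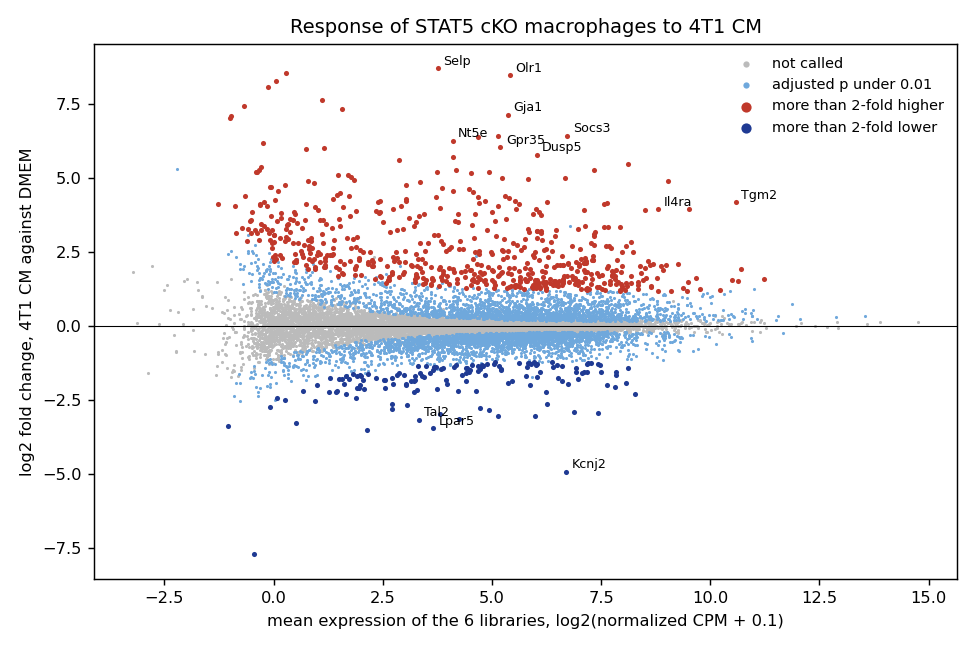
Each point is 1 of 13005 genes in STAT5 cKO macrophages, with mean expression in log2(normalized CPM + 0.1) on the horizontal axis and the log2 fold change of 4T1 CM against DMEM on the vertical axis. The 591 red points have a median of 2.25 and the 143 dark blue points a median of -1.74, and Selp at 8.72 and Kcnj2 at -4.92 are the most distant of the genes with at least 10 CPM in the higher group.

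Among genes with at least 10 CPM in the higher group, the largest rise belonged to Selp (chr1:164115264-164150026, plus strand), which encodes P-selectin, an adhesion molecule best known from platelets and endothelium. It was at 0.0919, 0 and 0.0823 normalized CPM in the DMEM libraries of mice 114, 115 and 116, and at 27.1, 25 and 28.5 in their 4T1 CM libraries. With 4 counts over the DMEM libraries against 1734, the ratio was 465 (95% counting interval 181 to 1707). Olr1 (chr6:129485244-129507165, minus strand), the receptor LOX-1 for oxidized LDL, was at 0.138, 0.348 and 0.206 CPM with DMEM and 61.7, 123 and 69.3 CPM with 4T1 CM, a log2 fold change of 8.49 ± 0.15 (SE). Gja1 (chr10:56377330-56402513, plus strand), which encodes the gap junction protein connexin 43, was at 0.643, 0.522 and 0.535 and then 66, 105 and 72.5 CPM (7.14 ± 0.18). In each of these genes the spread between the mice was small beside the difference, and absence of overlap between the groups was a condition for naming them. Socs3 (chr11:117966079-117970047, minus strand), the feedback inhibitor of STAT3 signaling, had the smallest p of all genes that rose, with 2.34, 2.17 and 2.68 CPM and 212, 214 and 202 CPM (6.44 ± 0.08, adjusted p = 5.31e-19). Trem1 (chr17:48232768-48246924, plus strand), an activating receptor that amplifies inflammation, was at 0.367, 1.04 and 0.947 and 49.9, 91.2 and 66.5 CPM (6.44 ± 0.16).

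Of the other 5 of the 10 largest rises, Nt5e, which encodes CD73, the ecto-enzyme that makes adenosine from AMP, was at 0.322, 0.783 and 0.206 CPM with DMEM and 22.9, 42.7 and 35.5 CPM with 4T1 CM (6.27 ± 0.18). Gpr35, a G-protein receptor, was at 1.1, 0.913 and 1.19 and 52.2, 93.6 and 70.2 CPM (6.05 ± 0.15). Dusp5, a nuclear phosphatase of ERK, was at 2.62, 2.35 and 1.93 and 137, 115 and 131 CPM (5.79 ± 0.12). Pxdc1 (6.40 ± 0.15) and Rab44 (5.74 ± 0.22), a large RAB GTPase, are the rest of these rises among genes with at least 10 CPM in the higher group and no overlap between the groups. The adjusted p of these 10 genes ran from 2.19e-13 to 5.31e-19. By smallest p, Socs3 was followed by Tgm2, the crosslinking enzyme transglutaminase 2, with 143, 150.4 and 183 CPM and 2665, 2823 and 3207 CPM (4.19 ± 0.06), by Il4ra, the receptor chain shared by IL-4 and IL-13, with 49.4, 58 and 54.9 and 759, 898 and 856 CPM (3.95 ± 0.06), by the zinc and iron importer Slc39a14 (4.15 ± 0.06) and by Trib1, a pseudokinase scaffold (5.02 ± 0.08). No library of one group reached the range of the other in any of them.

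Promoters of genes with these large rises are shown because a motif of AP-1, the factor family encoded by several of the genes that rose, was more common before such genes than over all genes. RefSeq windows on GRCm38.p6, from 250 bases before to 50 bases after the start, were at hand for 9336 of the 13005 tested genes. The AP-1 letters TGANTCA lay on either strand in 13.9% of the 416 windowed genes of the 591 that rose past 2-fold, in 8.65% of the 104 windowed genes of the 143 that fell, and in 6.2% of all 9336 genes. The TATA box TATAAA was found in 14.7%, 9.62% and 8.6%. The STAT motif TTCNNNGAA was found in 10.1%, 12.5% and 8.25%, the cAMP response element TGACGNCA in 6.73%, 4.81% and 6.5%, and the kappa B motif of NF-kB in 9.13%, 10.6% and 7.26%. Of the 10 largest rises, 9 had a window, of which 4 held the AP-1 letters and 2 the STAT letters, and of the 10 largest falls, all with a window, none held the AP-1 letters and 1 held the STAT letters. Below are the 250 bases before the start, 5′ to 3′ on the strand of the gene, with the AP-1 letters in capitals for the first 4 and the STAT letters in capitals for Socs3 and Trem1. The positions are chr1:164115014-164115263, plus strand for Selp; chr6:129507166-129507415, minus strand for Olr1; chr10:56377050-56377299, plus strand for Gja1; chr1:92978653-92978902, plus strand for Gpr35, which has 2 RefSeq starts, of which the one with the AP-1 letters is shown; chr11:117969367-117969616, minus strand for Socs3; and chr17:48232489-48232738, plus strand for Trem1.
Selp: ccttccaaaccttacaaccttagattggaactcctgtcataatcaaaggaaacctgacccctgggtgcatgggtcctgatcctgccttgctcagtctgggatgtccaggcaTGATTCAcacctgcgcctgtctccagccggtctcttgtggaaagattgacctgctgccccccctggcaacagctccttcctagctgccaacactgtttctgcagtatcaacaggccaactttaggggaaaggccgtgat
Olr1: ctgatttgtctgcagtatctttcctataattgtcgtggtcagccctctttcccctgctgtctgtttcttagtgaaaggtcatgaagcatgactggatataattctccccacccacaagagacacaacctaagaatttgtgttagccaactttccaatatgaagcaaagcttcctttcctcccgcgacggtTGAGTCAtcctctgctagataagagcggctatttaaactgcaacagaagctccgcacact
Gja1: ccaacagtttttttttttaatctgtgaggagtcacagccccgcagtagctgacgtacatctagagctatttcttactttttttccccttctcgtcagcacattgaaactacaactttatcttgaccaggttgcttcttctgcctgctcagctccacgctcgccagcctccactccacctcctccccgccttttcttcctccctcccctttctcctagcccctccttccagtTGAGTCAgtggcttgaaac
Gpr35: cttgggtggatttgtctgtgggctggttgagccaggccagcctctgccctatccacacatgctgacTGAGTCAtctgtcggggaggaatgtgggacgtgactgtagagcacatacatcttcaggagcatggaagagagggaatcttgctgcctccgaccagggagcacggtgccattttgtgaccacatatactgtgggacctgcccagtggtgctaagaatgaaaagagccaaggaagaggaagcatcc
Socs3: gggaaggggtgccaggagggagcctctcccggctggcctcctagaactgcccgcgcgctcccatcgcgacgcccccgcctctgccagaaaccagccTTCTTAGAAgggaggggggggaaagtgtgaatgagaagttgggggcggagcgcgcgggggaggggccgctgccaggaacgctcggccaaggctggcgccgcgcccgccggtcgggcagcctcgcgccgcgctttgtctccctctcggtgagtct
Trem1: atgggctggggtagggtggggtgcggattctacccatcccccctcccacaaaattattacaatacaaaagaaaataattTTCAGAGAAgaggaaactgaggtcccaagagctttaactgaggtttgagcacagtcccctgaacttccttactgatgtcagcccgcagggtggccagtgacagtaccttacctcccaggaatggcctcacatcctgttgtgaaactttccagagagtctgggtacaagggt
The AP-1 letters began 139 bases before the start in Selp, 60 in Olr1, 19 in Gja1 and 184 in Gpr35, and the STAT letters 154 bases before it in Socs3 and 171 in Trem1. For Socs3 the RefSeq start lies inside the Ensembl gene, so the stretch shown for it also lies within that gene. A match says only that these letters stand in the window.

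The deepest fall, by the same rule, was that of Kcnj2 (chr11:111066164-111076821, plus strand), the inward rectifier potassium channel Kir2.1, which sets the resting potential of macrophages. It dropped from 205, 211 and 190.5 CPM with DMEM to 6.76, 6.89 and 6.34 CPM with 4T1 CM, 30.3-fold lower (log2 fold change -4.92 ± 0.08, adjusted p = 2.11e-18). Lpar5, a receptor for lysophosphatidic acid, was at 23.3, 24.1 and 21.4 CPM and then 2.08, 2.74 and 1.49 CPM (-3.45 ± 0.15). Slc5a3, the sodium-coupled myo-inositol transporter of osmotic balance, was at 329, 299.7 and 283 and 43, 35 and 41.5 CPM (-2.93 ± 0.08). Absence of overlap between the groups was a condition for naming these falls, and in these 3 genes the spread within groups was small beside the change. Rnf144b, a ubiquitin ligase, was at 119, 115 and 107 and 15.6, 12 and 13.3 CPM (-3.06 ± 0.08). Tal2 (-3.17), Ypel2 (-3.14), the glycosidase Engase (-3.05), the chaperonin-like Bbs10 (-2.96), the organic anion transporter Slco4a1 (-2.92) and Fam214a (-2.85) complete the 10 largest falls, and the adjusted p of these 10 ran from 4.29e-12 to 2.11e-18. Sesn1, a stress gene that restrains mTORC1, had one of the 5 smallest p of the falls, at 142, 128 and 128 and 20.7, 22.6 and 21.3 CPM (-2.62 ± 0.07).

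**Figure D2:**
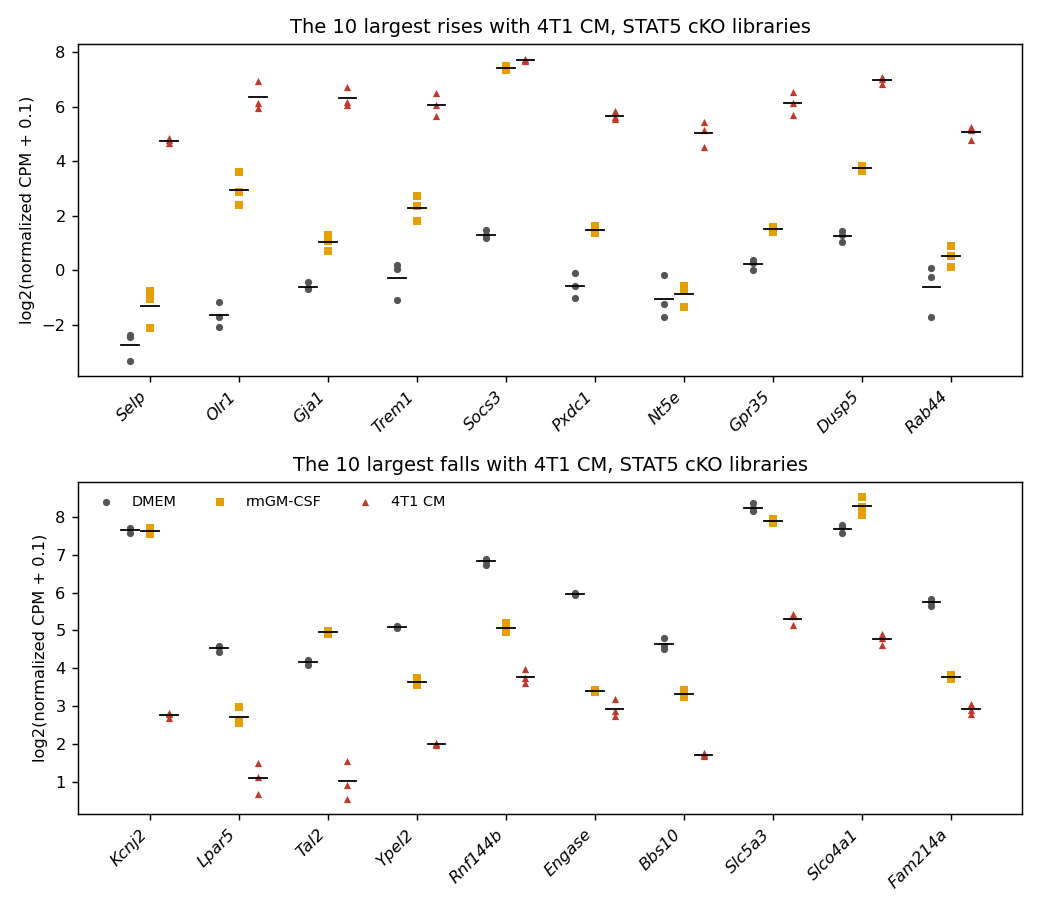
Points are single STAT5 cKO libraries (DMEM grey circles, rmGM-CSF orange squares, 4T1 CM red triangles) and short lines their means, in log2(normalized CPM + 0.1), for the 10 largest rises (upper panel) and falls (lower panel) with 4T1 CM. By the rule that chose these genes, all 4T1 CM points lie above the DMEM points in the upper panel and below them in the lower. For Socs3 the rmGM-CSF points lie close to those of 4T1 CM, whereas for Nt5e and Kcnj2 they lie at the level of DMEM.

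Transcription factors of the immediate early class rose together. Of 28 listed and tested, 24 were higher and 3 lower, with a median log2 fold change of 2.02 against 0.01 over all tested genes, and 18 of the 24 passed the 2-fold test. This count, and those of the lists that follow, stand against 20.3% of all tested genes higher and 19.1% lower. Fosl1, an AP-1 subunit, went from 4 counts over the DMEM libraries to 271 over the 4T1 CM libraries, a ratio of 72.6 (95% counting interval 28.0 to 268). The nuclear receptors Nr4a1, with 4.13, 3.52 and 2.88 CPM and 118, 99.5 and 114 CPM (4.98 ± 0.16), Nr4a2 (4.62 ± 0.15) and Nr4a3 (4.67 ± 0.16) rose by similar amounts. Among the AP-1 subunits, Fosl2 was at 46.3, 47.6 and 41.9 and 677, 643 and 733 CPM (3.92 ± 0.07) and Fos at 53.6, 51.5 and 50.4 and 341, 289.9 and 389 CPM (2.71 ± 0.10), whereas Junb (1.5) and Jun (0.59) rose less. Myc, the growth regulator, was at 6.71, 8.79 and 9.14 CPM and 120.0, 112 and 114 CPM (3.81 ± 0.09). Exceptions to the direction were Atf3, a repressor induced by stress and Toll-like receptors, which fell from 349, 364 and 379 CPM to 92.6, 88.7 and 78.5 CPM (-2.07 ± 0.07), Egr2 (-0.89 ± 0.08) and Klf6 (-0.22 ± 0.06), and Mafk did not pass (-0.19). The call of Klf6 was lost without mouse 114 (-0.19, adjusted p = 0.0373) or mouse 116 (-0.19, 0.0353). The fitted log2 fold change of Fosl1 was 6.04 and reached 7.23 without mouse 114. Egr1 and Egr3, relatives of Egr2, rose (2.0 and 3.38).

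Inhibitors of the MAP kinase cascades moved with them. All 15 tested members passed, 14 higher and 1 lower (median 1.77). The ERK phosphatase Dusp6 was at 16.6, 16.3 and 17 CPM with DMEM and 134, 154 and 194 CPM with 4T1 CM (3.26 ± 0.09), the broad phosphatase Dusp1 at 12.1, 14.1 and 14.2 and 128, 114 and 134 CPM (3.21 ± 0.09), and Errfi1, the inhibitor of the EGF receptor, at 8.87, 8.0 and 7.33 and 331, 343 and 273 CPM (5.29 ± 0.09). Spred2 (2.92), Spry2 (1.85) and Dusp4 (2.16) also rose, and Dusp8 fell (-0.65) but lost its call without mouse 114 (-0.64, adjusted p = 0.0244) or mouse 115 (-0.45, 0.0768). Regulators of mRNA decay split, with 5 of 13 higher and 5 lower (median 0.08). Zfp36, which encodes tristetraprolin and destabilizes cytokine mRNAs, rose from 91.8, 89.1 and 90.3 to 528, 483 and 523 CPM (2.50 ± 0.06), and the RNase gene Zc3h12a rose (1.55), whereas Zfp36l1 (-0.88), Tob2 (-0.83) and Rc3h1 (-0.49) fell.

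Many feedback and target genes of JAK/STAT signaling rose although STAT5 was absent. Of 17 tested members of a list of SOCS genes and known STAT5 targets, 10 were higher and 4 lower (median 1.18). The response of 5 of the 17 differed between the genotypes by the test given below. Among the 10 was Bcl6, which rose here (0.46) but fell in the fl/fl mice (-2.26). Besides Socs3, Socs1 was at 0.873, 0.87 and 0.494 CPM and 3.26, 4.39 and 4.16 CPM (2.40 ± 0.24). The survival and growth genes Pim1, with 53, 50.3 and 49.8 CPM and 155, 121 and 165 CPM (1.52 ± 0.08), Bcl2l1, with 95.5, 103 and 114 and 240.3, 219 and 244 CPM (1.18 ± 0.06), and Ccnd1 (2.11 ± 0.09) were higher. Mcl1 did not pass (0.14), and Socs6 (-1.0) and Pim3 (-0.82) fell. The classical STAT5 targets Cish and Socs2 rose to low levels. Cish was at 0.184, 0.217 and 0.206 CPM with DMEM and 2.08, 1.98 and 2.04 CPM with 4T1 CM (3.29 ± 0.28) and Socs2 at 1.06, 0.783 and 0.617 and 13.5, 15.2 and 17.3 CPM (4.23 ± 0.20).

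Receptors, kinases and STATs themselves shifted upward, with 18 of 24 higher and 3 lower (median 0.46). Stat3 was at 135, 137 and 138 CPM and 602, 647 and 627 CPM (2.20 ± 0.05), Jak2 at 51.5, 48.5 and 53.1 and 205, 239 and 232 CPM (2.14 ± 0.07), and Stat4, at a low level, rose as well (2.26). Csf2rb, the signaling chain of the GM-CSF receptor, was at 559, 584 and 623 and 1250.3, 1149 and 1318 CPM (1.07 ± 0.05), with the ligand chain Csf2ra higher by less (0.47). Csf2rb and its near copy Csf2rb2 (0.60) share sequence, so the split of counts between them is uncertain. Ifnar1 (1.38) rose, while Il10ra (-0.38) and Csf3r (-0.31) fell, and Csf1r did not pass (-0.01).

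The cytokine response was selective. Of 17 tested cytokines, 9 were higher and 1 lower (median 0.84, 1.37 without mouse 114). Il1b was at 12.4, 9.09 and 14.8 CPM with DMEM and 442, 605 and 570.5 CPM with 4T1 CM (5.47 ± 0.14), and its antagonist Il1rn at 33.4, 39.3 and 36 and 316, 453 and 339 CPM (3.34 ± 0.08). Osm, a cytokine of the IL-6 family, was at 4.69, 6.18 and 6.13 and 49.9, 54.6 and 55.7 CPM (3.23 ± 0.10). Clcf1, of the same family (5.12), Il1a (4.42), Il10 (2.28) and Csf1 (1.45) rose too. Tnf, by contrast, was at 21.5, 23.3 and 26.3 CPM and 27.6, 20.2 and 31.6 CPM (0.15 ± 0.10) and did not pass. The stress cytokine Gdf15 fell at a low level (-1.76), a call that was lost without mouse 116 (-1.41, adjusted p = 0.0208).

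Chemokine genes moved in both directions. Of 11 tested CC chemokines, 7 were higher and 2 lower (median 1.10, 0.61 without mouse 115), and of 8 CXC chemokines 6 were higher and none lower (median 1.5). Ccl2, the monocyte attractant, was at 0.965, 0.392 and 0.37 CPM with DMEM and 12.2, 16.7 and 17.5 CPM with 4T1 CM (4.76 ± 0.22; 5.47 without mouse 114), and Ccl7 rose with it (4.50). Ccl3 went the other way, from 47, 40.5 and 50.7 to 7.14, 5.85 and 7.38 CPM (-2.76 ± 0.11), as did Ccl4, from 16, 15 and 18.8 to 4.63, 3.45 and 7.15 CPM (-1.72 ± 0.13). The receptor gene Ccr1 rose, with 3.26, 3.48 and 3.83 CPM and 64.5, 80.6 and 80.7 CPM (4.41 ± 0.08), so that Ccl3 and a receptor of its product moved in opposite directions. Cxcl14, a CXC chemokine of epithelia and macrophages, was at 58, 85.3 and 73.6 and 430.4, 496 and 476 CPM (2.70 ± 0.07), and the neutrophil attractants Cxcl1 (2.03) and Cxcl2 (1.5) rose at low levels. Of 10 chemokine and chemoattractant receptors, 7 were higher, among them C5ar1 (1.68), and 1 was lower, Cxcr4 (604, 689 and 720.4 and 493, 459 and 461 CPM, -0.51 ± 0.07). Ccl5 was called higher through 1 library, with 3.9, 5.74 and 4.69 CPM and 3.73, 124 and 5.16 CPM. The groups overlap, and without mouse 115 it did not pass (log2 fold change 0.04, adjusted p = 0.855).

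NF-kB subunits and feedback genes shifted modestly, with 15 of 19 higher and 1 lower (median 0.66). Bcl3, a nuclear cofactor of the p50 and p52 subunits, was at 20.4, 21.4 and 21.6 CPM and 142, 114 and 132 CPM (2.60 ± 0.07), and Nfkbie at 32, 29.2 and 33.5 and 167, 158 and 163 CPM (2.36 ± 0.07). The inhibitors Nfkbia (0.72) and Tnfaip3 (1.22) and the subunits Nfkb1 (0.73), Nfkb2 (0.76) and Relb (0.66) were higher by less, and Nfkbiz (0.23) did not pass. Tnfaip2 fell (-0.33).

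Most genes of the cAMP/CREB list rose. Of 17 tested members of this list, which shares Nr4a1 and Nr4a2 with the immediate early list, 14 were higher and 1 lower (median 1.96). Adora2b, a member of the list of nucleotide, lipid and metabolite receptors, is an adenosine receptor that raises cAMP, and it was at 1.1, 1.7 and 1.98 CPM with DMEM and 54.9, 64.9 and 58.2 CPM with 4T1 CM (5.21 ± 0.12). Pde4d, a phosphodiesterase that degrades cAMP, was at 3.45, 3.35 and 1.93 and 49.5, 63.5 and 48.9 CPM (4.22 ± 0.14), and Pde4b at 15.5, 14.1 and 14.7 and 86, 78.7 and 97.4 CPM (2.56 ± 0.09). The groups did not overlap in these genes. The repressor gene Crem, at 12.6, 12.3 and 12.2 and 83.5, 106 and 97 CPM (2.95 ± 0.09), and the kinase Sik1, at 1.19, 1.3 and 1.15 and 25.8, 23.7 and 25.6 CPM (4.36 ± 0.14), rose as well. Creb1 did not pass (-0.15).

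Of 16 genes of prostaglandin and leukotriene metabolism, 6 were higher and 2 lower (median 0.30, 0.19 without mouse 115). Ptgs2, the inducible cyclooxygenase, was at 1.19, 1.7 and 1.28 CPM and 30.9, 35 and 33.7 CPM (4.57 ± 0.11), and Pla2g4a, the phospholipase that frees its substrate, at 9.83, 9.0 and 9.67 and 31.1, 39.8 and 36.3 CPM (1.91 ± 0.09). The degrading enzyme Hpgd (-0.82) and the synthase Hpgds (-0.64) fell, and Ptges did not pass (0.48). Of 19 nucleotide, lipid and metabolite receptors, Adora2b included, 9 were higher and 4 lower (median 0.43). Gpr84, a receptor for medium-chain fatty acids, was at 6.62, 9.26 and 7.37 and 113, 124 and 126 CPM (3.97 ± 0.08). Ptafr, the receptor for platelet-activating factor, fell from 520.2, 505 and 534 CPM to 116, 93.5 and 105 CPM (-2.31 ± 0.07), and Gpr34 fell from a low level (-2.12).

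Secreted growth factors moved in both directions. Of 18 tested, 8 were higher and 4 lower (median 0.35). Vegfa was at 26.2, 17.5 and 19.1 CPM with DMEM and 383, 322 and 371 CPM with 4T1 CM (4.11 ± 0.08). Fgf2 went from 2 counts over the DMEM libraries to 365, a ratio of 196 (95% counting interval 53.8 to 1621). Hbegf, a ligand of the EGF receptor, was at 0.459, 0.783 and 0.782 and 8.37, 11.4 and 9.37 CPM (3.83 ± 0.17), Pdgfa at 30.4, 35.8 and 37.3 and 150.3, 128 and 156 CPM (2.07 ± 0.08) and Tgfb3 at 2.57, 2.7 and 2.18 and 33.8, 36.7 and 33.4 CPM (3.80 ± 0.12). Igf1 was lower (600.3, 613 and 590.2 and 429, 453 and 505 CPM, -0.38 ± 0.06) and Bmp2 fell further (-2.09). Of the relatives of Vegfa, Vegfb fell, from 30.3, 38.4 and 33.3 to 26, 23.5 and 23.9 CPM (-0.47 ± 0.09), and Vegfc (0.21) and Pgf (0.80) did not pass.

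Of 31 tested matrix genes, 18 were higher (58.1%, against 20.3% of all tested genes) and 2 lower (median 0.82, 0.71 without mouse 115 and 0.63 without mouse 116). Thbs1, thrombospondin 1, an adhesive glycoprotein that activates latent TGF-beta, was at 37.7, 29.7 and 34.4 CPM and 904, 1136 and 1011 CPM (4.91 ± 0.12). Plaur, the urokinase receptor, was at 31.5, 31 and 36.8 and 287, 295 and 286 CPM (3.13 ± 0.07). The inhibitor Timp1 (3.66), the proteases Mmp19 (2.34), Adam8 (1.56) and Mmp9 (1.04) and the matrix proteins Tnc (2.64) and Vcan (2.17) rose. Mmp14 was higher, with 5.51, 10.1 and 10.4 and 16.9, 77.8 and 29.4 CPM (2.1 ± 0.23), the highest value being that of mouse 115, without which it was 1.54. Of the fibrillar collagens, Col1a1 (0.02) and Col5a2 (0.24) did not pass, and Adamts1 fell (-1.20). Targets of TGF-beta signaling were also higher, 9 of 13 against 1 lower (median 1.01). The feedback genes Pmepa1, at 3.72, 5.87 and 4.49 and 70.4, 95.1 and 97.1 CPM (4.22 ± 0.10), and Smad7, at 8.41, 11.5 and 8.6 and 50.2, 53.8 and 56.1 CPM (2.50 ± 0.10), led them, and Id3 fell (-0.69).

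Glucose handling shifted upward, with 14 of 19 glycolysis genes higher and 1 lower (median 0.50, 0.39 without mouse 115). Slc2a1, the glucose transporter GLUT1, was at 33.4, 35.1 and 36 CPM and 283, 299 and 277 CPM (3.04 ± 0.06), Pfkfb3, the enzyme of the glycolytic activator fructose 2,6-bisphosphate, at 51.2, 58.4 and 58.4 and 256, 257 and 273 CPM (2.23 ± 0.06), and Hk2 at 52.1, 62.3 and 56.5 and 173, 145 and 164 CPM (1.5 ± 0.08). The enzymes Ldha (0.71) and Pkm (0.42) rose less. Gapdh was also higher (0.58), but its many pseudogenes make its count uncertain. Targets of the hypoxia factor HIF were mixed, with 9 of 18 higher and 4 lower (median 0.21). Beside Vegfa, Hilpda (2.60) and Ddit4 (2.57) rose, whereas Kdm3a (-0.86) and Bnip3l (-0.39) fell and Pdk1 did not pass (-0.11).

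Cholesterol synthesis and uptake genes were higher in 15 of 23 cases and lower in 1 (median 0.74). Cyp51, the sterol demethylase, was at 19.6, 24.4 and 21 CPM with DMEM and 55.3, 102 and 44.8 CPM with 4T1 CM (1.57 ± 0.15), the sterol oxidase gene Msmo1 at 41.5, 51.6 and 44.5 and 101, 179 and 91.8 CPM (1.39 ± 0.11), and the mevalonate pathway kinase gene Pmvk at 13.5, 12.4 and 13.6 and 35.7, 43.8 and 32.2 CPM (1.49 ± 0.10). Mouse 115 moved most, with a list median of 1.07 against 0.57 in mouse 114 and 0.45 in mouse 116. Scd2, a fatty acid desaturase, rose (2.61) while Fasn did not pass (-0.23), with 6 of 15 fatty acid genes higher and 2 lower (median 0.20, 0.0027 without mouse 115). Genes of lipid efflux and storage split 6 higher to 5 lower among 18 (median -0.0063). The cholesterol exporter Abca1 rose, from 509.5, 390.1 and 367 to 919.7, 1019.8 and 1002 CPM (1.23 ± 0.08), whereas Abcg1, from 540.3, 513 and 525 to 311, 229 and 304 CPM (-0.91 ± 0.07), Pparg, from 53.1, 52.3 and 49.5 to 29.4, 20.9 and 21.5 CPM (-1.12 ± 0.08), Fabp4 (-0.87) and Plin2 (-0.83) fell.

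Lists of stress genes differed, and those of the ATF4 response and of tRNA synthetases did not move as blocks. Of 21 genes of the ATF4 and amino acid response, 7 were higher and 7 lower (median -0.0039), with the cystine transporter Slc7a11 (1.88) and Cebpb (2.30) up and Pck2 (-1.11) and Sesn2 (-0.51) down, while Asns (0.09) did not pass. Of 20 tRNA synthetases, 1 was higher and 3 lower (median -0.06). NRF2 targets were higher in 6 of 20 cases and lower in 2 (median 0.09), led by Srxn1 (1.47) and Txnrd1 (0.92). Chaperones mostly rose by small amounts, with 12 of 20 higher (60%, against 20.3% of all tested genes) and 2 lower (median 0.34). All of them moved by less than the 2-fold test requires.

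Antigen presentation genes rose by small amounts. Of 11 tested genes of the class II pathway, 9 were higher and 1 lower (median 0.54), and of 15 of class I, 11 were higher and none lower (median 0.29). H2-Ab1 was at 96.9, 71.6 and 129.8 CPM and 142, 162 and 173 CPM (0.71 ± 0.10), Cd74, the invariant chain, at 774, 616 and 924 and 909, 1033 and 1111 CPM (0.42 ± 0.08), and the peptide transporter Tap1 at 42.8, 41.4 and 36.7 and 73.5, 76.9 and 90.3 CPM (0.99 ± 0.09). Ciita, the master coactivator of class II genes, fell from 36.8, 28.7 and 36.5 to 15.3, 16.1 and 21.4 CPM (-0.96 ± 0.09) while its targets rose. Without mouse 115 the medians were 0.36 for class II and 0.19 for class I. In the class II list the median of mouse 115 was 0.85, against 0.31 in mouse 114 and 0.35 in mouse 116. Without the mouse as a block, H2-Ab1 (0.68, adjusted p = 0.0229) and Cd74 (0.40, adjusted p = 0.0805) did not pass. Histocompatibility genes share sequence among themselves, so the count of any 1 of them is uncertain. Interferon-stimulated genes were higher in 23 of 35 cases and lower in 1 (median 0.37). Irf7 was at 106, 114 and 114 CPM and 136, 444 and 168 CPM (1.02 ± 0.22), with the highest value again from mouse 115 and a log2 fold change of 0.46 without it, and Zbp1 at 16.2, 14.6 and 16.6 and 31.6, 55.3 and 39.1 CPM (1.39 ± 0.13). Irf1 fell, from 73.5, 74.9 and 79.8 to 47.4, 37.6 and 46.1 CPM (-0.80 ± 0.07), and Ifit1 (0.20) and Ifit2 (-0.22) did not pass.

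Several costimulatory genes rose strongly. Of 15 tested, 8 were higher and 3 lower (median 0.62). Cd86, at 18.7, 17.4 and 20.5 CPM with DMEM and 146, 158 and 159 CPM with 4T1 CM (3.04 ± 0.07), and Cd80, at 7.9, 6.74 and 8.27 and 36.7, 49.7 and 46.1 CPM (2.53 ± 0.11), encode the ligands of CD28 and CTLA-4. Havcr2, the inhibitory receptor TIM-3, was at 9.74, 15.7 and 13.1 and 98.5, 142 and 113 CPM (3.20 ± 0.07), and Cd40 at 2.48, 1.87 and 2.55 and 10.2, 6.75 and 11.8 CPM (2.05 ± 0.16). The checkpoint ligand Cd274, PD-L1, was lower, with 71.2, 67.5 and 66.6 CPM and 54.4, 53 and 54.1 CPM (-0.35 ± 0.07), as was Sirpa, the receptor of the signal CD47 (-0.49). The libraries did not overlap in any of these genes.

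Some markers used for polarized macrophages rose on each side, and others were absent or did not rise. Of 10 of the M1 type, 5 were higher and none lower (median 1.06), and of 11 of the M2 type, 6 were higher and 2 lower (median 0.62). Arg1, arginase 1, had no count in the DMEM libraries and 51 over the 4T1 CM libraries, at least 18.2-fold higher against a floor of 3 counts over the group, but 36 of those counts came from 1 library. Its levels were 0.52, 1.7 and 0.181 CPM with 4T1 CM, and its fitted log2 fold change of 7.05 fell to 5.83 without mouse 115 (adjusted p = 0.00433). Nos2, the M1 counterpart, was at 0.138, 0.261 and 0.247 and 0.0946, 0.661 and 0.272 CPM and did not pass. Il6, also of the M1 type, had no count with DMEM and 10, 5 and 10 counts with 4T1 CM. Irf4, a factor of the M2 type, fell (-1.0). The M2 list shares Myc and Klf4 with the immediate early list. Its members Retnla, Chil3, Chil4 and Cd209d had no count in the 6 libraries, and Cd163 did not rise (46, 49 and 57 counts with DMEM, 40, 41 and 39 with 4T1 CM).

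Pattern receptors moved in both directions. Of 23 tested genes, 10 were higher and 8 lower (median -0.09). The endosomal receptors Tlr7, from 381, 407 and 418 CPM to 136, 173 and 139 CPM (-1.43 ± 0.07), Tlr9, from 85, 78.3 and 78.2 to 31.8, 29.2 and 30.9 CPM (-1.39 ± 0.06), and Tlr8 (-0.40) fell, while the endosomal Tlr3 (-0.12) did not pass. At the cell surface Tlr2 (0.77) and Tlr5 (4.22) and the coreceptor Cd14, from 1168, 1179 and 1208 to 3379, 3948 and 3418 CPM (1.59 ± 0.07), rose, but Tlr1 (-0.60) fell and Tlr4 did not pass (-0.14). Nlrp3, the inflammasome sensor, was at 56.8, 47.8 and 55.7 and 230.2, 218 and 248 CPM (2.12 ± 0.07). Phagocytic receptors were higher in 17 of 22 cases and lower in none (median 0.51), led by Fcgr1, at 106, 101 and 111 and 300.4, 375 and 354 CPM (1.69 ± 0.07), and by the scavenger receptor Msr1, at 212, 212 and 251 and 482, 614 and 613 CPM (1.34 ± 0.06).

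Lineage factors moved in both directions, with 12 of 25 higher and 7 lower (median 0.23, 0.09 without mouse 114). Runx3 was at 3.72, 5.31 and 8.11 CPM and 80.1, 76.6 and 109 CPM (3.97 ± 0.12) and Nfil3 at 9.6, 8.09 and 8.6 and 131, 124 and 126 CPM (3.86 ± 0.08). Maf fell, from 274, 206 and 202 to 102, 116 and 103 CPM (-1.08 ± 0.08), as did Zeb2, a factor that maintains tissue macrophages, from 735, 642 and 622 to 291, 307 and 303 CPM (-1.15 ± 0.09), while Spi1, which encodes PU.1, did not pass (-0.13). Lysosome and autophagy genes were higher in 5 of 35 cases and lower in 10 (median 0.07). Tfeb, the master regulator of lysosome genes, fell from 79.7, 79.4 and 82.2 CPM to 35.8, 33 and 33.7 CPM (-1.23 ± 0.07) and Ulk1, the kinase that starts autophagy, from 84.5, 90.3 and 80.8 to 42.9, 41.7 and 40.3 CPM (-1.03 ± 0.07), whereas the cathepsin Ctsl rose (0.44) and Ctsb (0.14) and Ctsd (0.13) did not pass.

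Of 20 tested genes of survival and apoptosis, 9 were higher and 2 lower (median 0.37). Bcl2 was at 13, 12 and 12.1 CPM and 40.2, 37.3 and 48.7 CPM (1.76 ± 0.09) and the caspase 8 inhibitor Cflar at 143, 137 and 136 and 430.1, 446 and 455 CPM (1.68 ± 0.07), whereas Bmf, a BH3-only activator of apoptosis, fell from 36.6, 44.5 and 41.1 to 8.42, 9.16 and 8.96 CPM (-2.20 ± 0.11). Another BH3-only gene, Bcl2l11, rose (0.66). Of 18 p53 targets, 5 were higher and 7 lower (median 0.02). The cell cycle inhibitor Cdkn1a was at 147, 152 and 159 and 652, 588 and 678 CPM (2.07 ± 0.07), but Bbc3, which encodes PUMA (-1.41), Trp53inp1 (-1.68) and Sesn1 fell.

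Ribosome biogenesis genes were higher in 9 and lower in 9 of 36 cases (median -0.0012, 0.12 without mouse 115), although Myc rose. Of 16 genes of the MYC network and growth, 6 were higher, among them the polyamine enzyme Odc1 (2.82), and 4 were lower (median -0.02, 0.07 without mouse 114 and 0.08 without mouse 115), among them the antagonists Mnt (-1.01) and Mxd4 (-0.97). Cell cycle genes were higher in 7 and lower in 3 of 37 cases (median 0.14, -0.26 without mouse 115), with list medians of 0.02, 0.33 and -0.30 in mice 114, 115 and 116. Nuclear genes of the respiratory chain were higher in 7 of 39 cases, a share of 17.9% against 20.3% of all tested genes, and lower in none (median 0.13). Of 11 genes encoded by mitochondrial DNA, 6 were higher and none lower (median 0.32). The plot of gene lists places the immediate early, cAMP and MAP kinase feedback lists at the top and the tRNA synthetase and pattern receptor lists at the bottom.

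**Figure D3:**
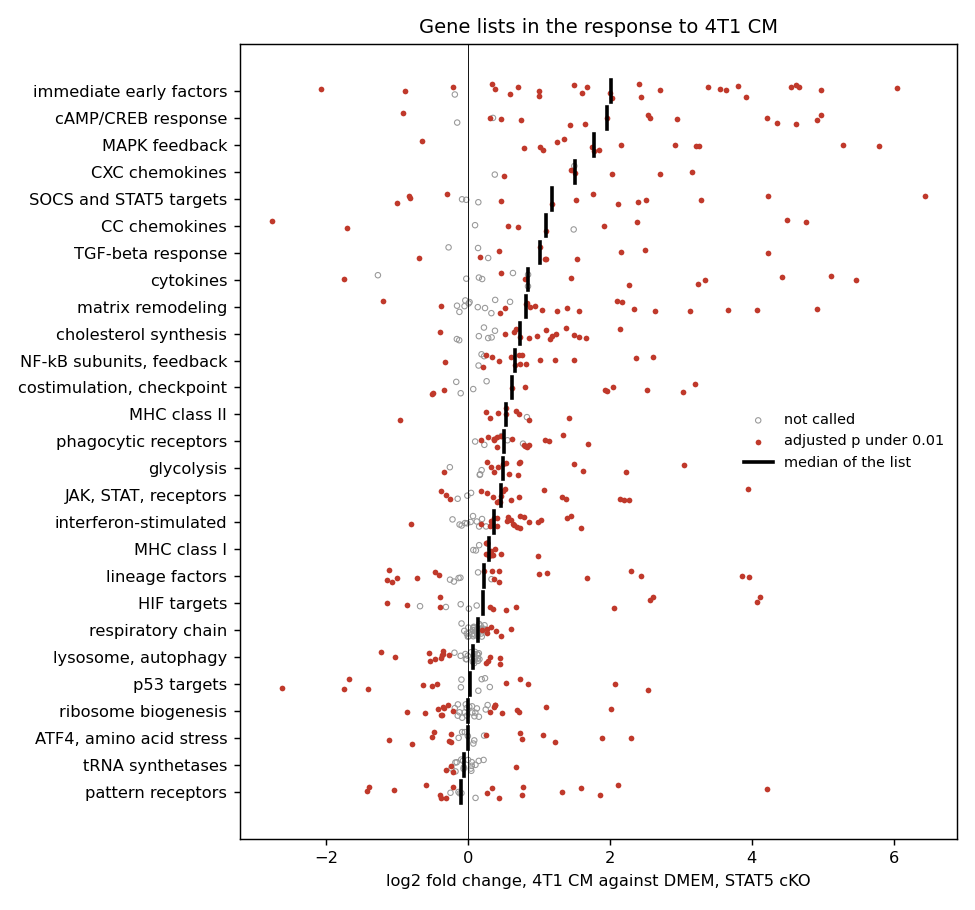
Each point is a tested gene of 1 of 27 lists, at its log2 fold change of 4T1 CM against DMEM in STAT5 cKO macrophages, filled red where its adjusted p was under 0.01, with the list median as a black bar. Medians run from 2.02 for the immediate early factors to -0.09 for pattern receptors, and the lists near 0 hold genes that moved in both directions.

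The same contrast in the 2 STAT5 fl/fl mice shares no library with that in the STAT5 cKO mice, so the responses can be compared. With STAT5 present, 2656 genes (20.4%) were higher and 2486 (19.1%) were lower with 4T1 CM. Of the 5130 genes called in STAT5 cKO, 4022 (78.4%) were called in the same direction in fl/fl, or 78.2% of the 5142 called there, 1094 were not called and 14 were called in the opposite direction. Of the 734 genes past 2-fold in STAT5 cKO, 720 (98.1%) were called in the same direction in fl/fl. Over all 13005 genes the log2 fold changes in the genotypes gave Pearson's r of 0.898 and Spearman's rho of 0.848, a description across genes that are not independent. The difference between the responses was tested as an interaction in the same model and passed for 295 genes (2.27% of those tested), 168 with a higher value in STAT5 cKO (1.29%) and 127 with a lower one (0.977%). This count depends on the model and on the fl/fl mice. It was 170 without the mouse as a block, all of them among the 295, and 131 without mouse 112 and 66 without mouse 113, the 2 fl/fl mice.

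For most genes called in STAT5 cKO, the difference between the genotypes was small or could not be placed. Its 95% interval lay within 1.5-fold in either direction for 3341 of the 5130 genes (65.1%), the interaction passed for 250 (4.87%), and for 1541 (30%) neither held. Of the 734 genes past 2-fold, 234 (31.9%) were within 1.5-fold of the fl/fl response, 83 (11.3%) differed and 417 (56.8%) were undecided. Genes of the first kind include Kcnj2 (difference of STAT5 cKO minus fl/fl on the log2 scale -0.19 ± 0.13, 95% interval -0.47 to 0.09) and Il4ra (-0.11 ± 0.09, -0.29 to 0.08). For Socs3, with a log2 fold change of 6.95 in fl/fl, the difference of -0.51 ± 0.16 did not pass (adjusted p = 0.0894). Of the 70 genes past 2-fold higher whose response differed, 37 rose less and 33 rose more in STAT5 cKO.

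**Figure D4:**
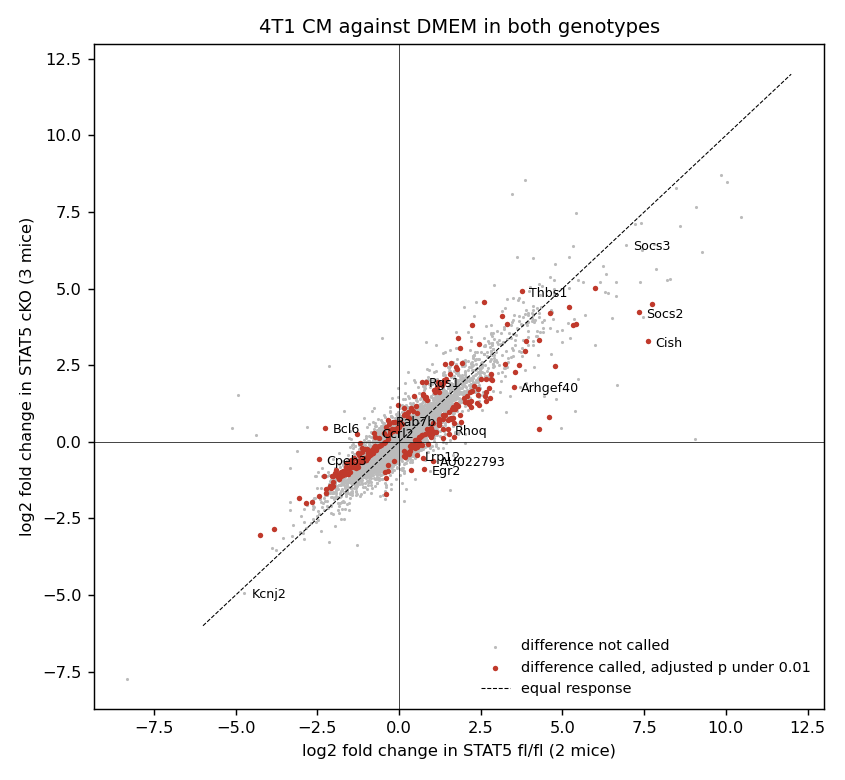
Each point is 1 of 13005 genes, with the log2 fold change of 4T1 CM against DMEM in STAT5 fl/fl on the horizontal and in STAT5 cKO on the vertical axis, red where the difference passed an adjusted p of 0.01 (295 genes). Most points lie near the dashed line of equal response, with Cish and Socs2 below it and Bcl6 above it.

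Among genes with a weaker rise in STAT5 cKO were the classical STAT5 targets. Cish rose from 0.273 and 0.0843 CPM to 33 and 38.6 CPM in the fl/fl mice, so that the difference was -4.34 ± 0.60 (adjusted p = 0.00029), and Socs2 from 0.818 and 0.379 to 79.9 and 117 CPM (-3.13 ± 0.43). Without mouse 112 or mouse 113 the difference was -5.45 or -3.60 for Cish and -4.02 or -2.37 for Socs2, and it passed each time. Pgf, the placental growth factor, moved from 0.364 and 0.464 to 11.5 and 8.67 CPM in fl/fl and from 0.505, 0.827 and 0.453 to 0.756, 1.23 and 1.13 CPM in STAT5 cKO, where it did not pass (-3.77 ± 0.46). Smaller rises in STAT5 cKO were also found for Msr1 (-0.88 ± 0.10) and Il1rn (-0.94 ± 0.12), the latter not without the block (adjusted p = 0.039). Larger rises in STAT5 cKO were found for Tgfb3 (1.57 ± 0.19), Fosb (1.96 ± 0.32), Thbs1 (1.15 ± 0.17), Vegfa (0.95 ± 0.12) and Smad3 (0.80 ± 0.12). Tgfb3 passed without either fl/fl mouse. Thbs1 did not (adjusted p = 0.0132 without mouse 112 and 0.0153 without mouse 113), Vegfa did not pass without mouse 112 (0.0113) or without the block (0.017), and Fosb and Smad3 did not pass without mouse 113 (0.0937 and 0.029). For Vegfa the fl/fl libraries moved from 27.3 and 20.9 CPM to 217 and 212 CPM, and for Thbs1 from 31.6 and 26.1 to 421 and 361 CPM.

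The 14 genes called in opposite directions in the 2 genotypes were led by Bcl6 (chr16:23965052-23988852, minus strand), a transcriptional repressor of the germinal center and of macrophage inflammatory genes. In the fl/fl mice it fell from 139 and 153 CPM with DMEM to 30.5 and 30.2 CPM with 4T1 CM, and in the STAT5 cKO mice it rose from 153, 157 and 143 CPM to 203, 198 and 224 CPM. The difference was 2.72 ± 0.10 (adjusted p = 2.13e-11), the smallest p of all interactions. Egr2 went the other way, up from 46.3 and 42.7 to 79.5 and 72.4 CPM in fl/fl and down from 38.3, 31.4 and 33.7 to 21.8, 17.3 and 16.7 CPM in STAT5 cKO (-1.66 ± 0.12). Rab7b, a GTPase of lysosomal transport (1.03 ± 0.09), and Ccrl2, an atypical chemerin receptor (1.06 ± 0.10), rose in STAT5 cKO and fell in fl/fl. Lrp12 (chr15:39870589-39943994, minus strand; -0.99 ± 0.09), the transcript AU022793, annotated beside it on the other strand (chr15:39962649-39967024, plus strand; -1.65 ± 0.14), and Cd274, which rose from 98 and 82.1 to 113 and 110.4 CPM in fl/fl (-0.66 ± 0.11), fell in STAT5 cKO and rose in fl/fl, although the difference of Cd274 did not pass without mouse 113 (-0.56, adjusted p = 0.0551). The others are Ifrd1, Gramd1b, Gpcpd1 and Tmcc3, higher in STAT5 cKO, and Sav1, Kcnk6 and Gprc5c, lower. The STAT5 cKO calls of Tmcc3 and Gprc5c were lost when a cKO mouse was left out (adjusted p = 0.0519 without mouse 114 for Tmcc3 and 0.178 without mouse 115 for Gprc5c, which also did not pass without the block, 0.0412). The difference did not pass without mouse 112 for Gpcpd1 (adjusted p = 0.0188) and Kcnk6 (0.0166), nor without mouse 113 for Tmcc3 (0.0238), Sav1 (0.0175) and Gprc5c (0.223). By smallest p, the genes called in STAT5 cKO whose response differed also include Rgs1, a brake on G-protein signaling, which rose more without STAT5 (1.26 ± 0.09), Cpeb3, which fell less (1.89 ± 0.17), and Rhoq (-1.07 ± 0.09) and Arhgef40 (-1.73 ± 0.17), which rose less. The plot of these 10 genes by library shows that the 4T1 CM values of the genotypes did not overlap for any of them, which their choice by smallest p favors.

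Bcl6 has 2 RefSeq starts, and the 250 bases before each are shown because they differ in the STAT letters TTCNNNGAA, in capitals. Those before the start at the end of the Ensembl gene (chr16:23988853-23989102, minus strand) hold 1 match, 118 bases before the start. Those before the start inside the gene (chr16:23981284-23981533, minus strand) hold 3, at 168, 122 and 88 bases before it.
Bcl6 outer start: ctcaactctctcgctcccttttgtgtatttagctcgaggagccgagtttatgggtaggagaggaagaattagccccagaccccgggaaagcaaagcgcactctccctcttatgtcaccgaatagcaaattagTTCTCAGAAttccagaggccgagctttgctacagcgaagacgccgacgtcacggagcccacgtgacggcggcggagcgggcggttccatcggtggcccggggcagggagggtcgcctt
Bcl6 inner start: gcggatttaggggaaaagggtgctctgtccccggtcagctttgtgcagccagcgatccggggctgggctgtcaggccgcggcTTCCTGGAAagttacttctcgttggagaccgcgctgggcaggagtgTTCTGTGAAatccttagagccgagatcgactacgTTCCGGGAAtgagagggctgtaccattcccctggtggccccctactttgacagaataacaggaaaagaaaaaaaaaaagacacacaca
Over all 9336 genes with a window, 8.25% hold these letters at least once.

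**Figure D5:**
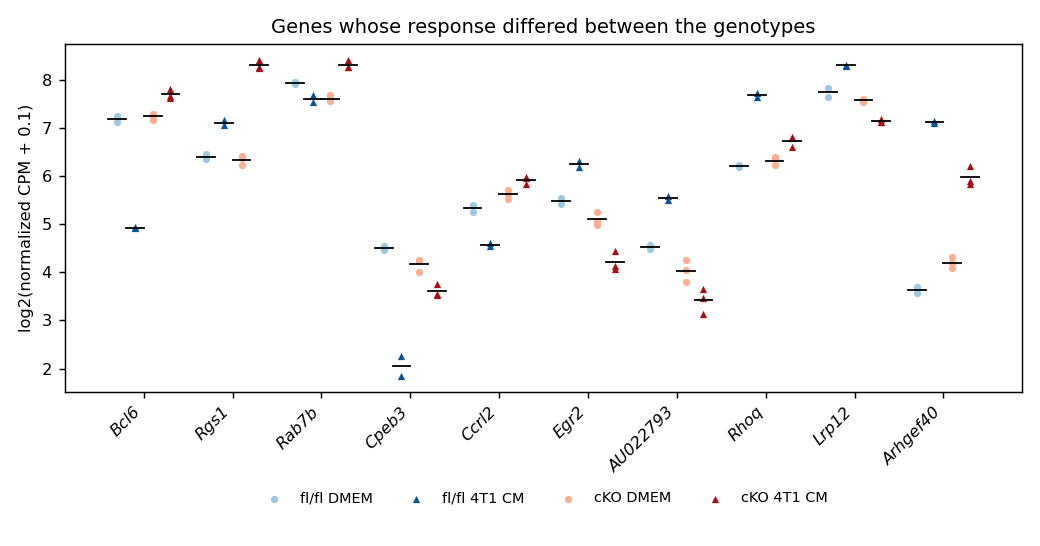
Points are single libraries and short lines group means, in log2(normalized CPM + 0.1), for the 5 genes per direction with the smallest interaction p among genes called in STAT5 cKO (fl/fl blue, STAT5 cKO red; DMEM circles, 4T1 CM triangles). For Bcl6 the fl/fl triangles lie at 30.5 and 30.2 CPM, below every circle, and the STAT5 cKO triangles lie above every circle.

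The rmGM-CSF libraries of the same STAT5 cKO mice set the tumor medium beside a single cytokine. They are compared with the same DMEM libraries, so the values are given side by side. With rmGM-CSF, 1862 genes (14.3%) were higher and 1452 (11.2%) lower than with DMEM. Compared directly, 2292 genes (17.6%) were higher and 2414 (18.6%) lower with 4T1 CM than with rmGM-CSF. Of the 591 genes past 2-fold higher with 4T1 CM, 519 were higher than with rmGM-CSF, 32 were lower and 40 did not pass. Those genes were chosen as high in the same 4T1 CM libraries, which favors this split, so it is a description only. Socs3 was at 162, 181 and 169.6 CPM with rmGM-CSF, a log2 fold change of 6.15 over DMEM against 6.44 with 4T1 CM (direct difference 0.29, adjusted p = 0.000312). Nt5e, at 0.294, 0.58 and 0.511 CPM, was not moved past the test by rmGM-CSF (0.08 against 6.27), and neither was Kcnj2, at 189, 209.8 and 199 CPM (-0.02 against -4.92). Il4ra (0.47 against 3.95), Adora2b (3.62 against 5.21) and Olr1 (5.09 against 8.49) rose less with rmGM-CSF. Egr2 was at 106, 104 and 106 CPM, above DMEM with rmGM-CSF and below it with 4T1 CM (1.62 against -0.89). The adjusted p of the direct difference was at most 4e-11 for Nt5e, Kcnj2, Il4ra, Adora2b, Olr1 and Egr2. List medians over DMEM differed in both directions. With rmGM-CSF the median was higher for NF-kB genes (1.44 against 0.66) and CC chemokines (1.79 against 1.10). It was lower for immediate early factors (0.73 against 2.02) and the cAMP/CREB list (0.35 against 1.96).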

How the data were processed

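RNA-seq counts were taken from the table deposited by the authors, which holds 15 libraries of bone marrow-derived macrophages, each matched to its mouse and treatment by its column name. Per the file headers and the study's methods, the authors trimmed reads with Trimmomatic 0.33, aligned them to GRCm38 with HISAT2 2.1.0 and counted fragments per Ensembl gene with featureCounts 1.6.2, with strand, both ends mapped and a mapping quality of at least 10. Reads shared by near-identical gene copies can be lost at that quality limit. The values are raw counts with no normalization.

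Genes that exceeded 1 CPM in 2 or more of the 15 libraries were kept (13005 of 55385). One model was fitted to all 15 libraries with edgeR 4.0.16 in R 4.3.3, with relative log expression normalization, the mouse as a block and treatment nested in genotype, so that all groups shared 1 estimate of the spread (biological coefficient of variation 0.0668). The quasi-likelihood F test gave the calls, glmTreat the 2-fold test and an interaction contrast the difference between genotypes, each at a Benjamini-Hochberg adjusted p under 0.01 over all tested genes. Errors of log2 values are standard errors, and levels are normalized CPM, which allow no comparison between genes. Libraries with the same mouse number in the labels come from 1 mouse, which pairs them. Deviations of the DMEM and 4T1 CM libraries of mice 114, 115 and 116 from their group means correlated with r = 0.0842, 0.184 and 0.0548 across genes. Counting intervals and floors cover counting error only.

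Genes named were the 10 largest called changes per direction (at least 10 CPM in the higher group, no overlap), the 5 per direction with the smallest p, the leading called members of each gene list with well expressed members that did not pass, the 5 per direction with the smallest interaction p, and cell type markers. Genes called in opposite directions and some further list members were named after their values were seen. The members and lists were chosen with earlier results of these data known. On simulated counts for this comparison with 200 of 13005 genes changed, 67% of 1.5-fold and 94% of 2-fold changes were recovered and 3.59% of calls were false. The changed genes were drawn only from those above a minimum mean count. They were far fewer than the 5130 called in the data, so these rates may not hold for the comparison itself. The alternatives tried were the edgeR filter filterByExpr, no filter on low counts, TMM normalization, no block, only the libraries compared, a likelihood ratio test, DESeq2 1.42.0, an adjusted p under 0.05 and leaving out each mouse.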

Additional observations from a re-analysis of the deposited data

Results flagged for a closer look

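The response to 4T1 CM differed between STAT5 cKO and STAT5 fl/fl macrophages for 295 genes by the test of the difference itself (edgeR's quasi-likelihood test, adjusted p under 0.01). Values below are the difference of the log2 fold changes, STAT5 cKO minus fl/fl, for each gene named here or above whose difference passed.

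A more positive response without STAT5 was found among transcription factors and repressors for Bcl6 (2.72), Fosb (1.96), Egr3 (1.58), Mnt (0.96), Smad3 (0.80), Mafk (0.56) and Nfil3 (0.56). In genes of secreted and matrix proteins it was found for Tgfb3 (1.57), Thbs1 (1.15) and Vegfa (0.95), and in regulators of signaling and metabolism for Rgs1 (1.26), Socs6 (0.62), Nfkbie (0.58), Pfkfb3 (0.66), Ulk1 (0.53), Bcl2l11 (0.78) and Tlr7 (0.60). The remaining genes of this direction were Cpeb3 (1.89), Engase (1.19), Ccrl2 (1.06), Rab7b (1.03), Fam214a (0.97), Ifrd1 (0.90), Gpcpd1 (0.89), Tmcc3 (0.74) and Gramd1b (0.68).

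A more negative response without STAT5 was found for the STAT5 targets Cish (-4.34) and Socs2 (-3.13), for the growth factor Pgf (-3.77) and for cytokines, chemokines and their receptors, namely Ccl7 (-3.23), Ccl4 (-1.30), Cxcl2 (-1.13), Il1rn (-0.94), Tnf (-0.83), Ccr1 (-0.78) and Csf2rb (-0.55). Tnf moved from 15.6 and 17.4 to 35.6 and 29.8 CPM in fl/fl (log2 fold change 0.98), where STAT5 cKO macrophages did not pass the test. Receptors and other genes of this direction were Tlr4 (-0.68), Msr1 (-0.88), Cd274 (-0.66), Arhgef40 (-1.73), Egr2 (-1.66), AU022793 (-1.65), Gprc5c (-1.25), Rhoq (-1.07), Lrp12 (-0.99), Kcnk6 (-0.61), Sav1 (-0.61), Cdkn1a (-0.58) and Tgm2 (-0.41).

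Of these 49 differences, 20 passed when each mouse in turn was left out and also without the mouse as a block: those of Bcl6, Mnt, Tgfb3, Rgs1, Bcl2l11, Cpeb3, Engase, Ccrl2, Rab7b, Ifrd1, Gramd1b, Cish, Socs2, Pgf, Msr1, Arhgef40, Egr2, AU022793, Rhoq and Lrp12. Each of the other 29 was lost under at least 1 of these alternatives, with 32 of the 49 past the threshold without fl/fl mouse 112, 26 without fl/fl mouse 113 and 35 without the block. The difference of Tnf was -0.62 (adjusted p = 0.139) without mouse 112 and -1.04 (adjusted p = 0.0217) without mouse 113, and that of Ccl7 was -3.21 (adjusted p = 0.0636) without mouse 113. With 1 of the 2 fl/fl mice left out, the remaining one was assumed to vary like the STAT5 cKO mice.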

How the results depend on the processing

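The counts of genes called in STAT5 cKO stayed within 1.5 times of those reported under every alternative run, from 2096 to 3406 higher and 1880 to 3209 lower, and from 501 to 690 higher and 108 to 175 lower past 2-fold. No named gene that was called changed direction. The count of genes whose response differed between the genotypes moved more. Against 168 with a higher and 127 with a lower value in STAT5 cKO, it was 342 and 234 without a low-count filter, 67 and 52 with only the libraries compared, 282 and 193 with the likelihood ratio test, 359 and 249 at an adjusted p of 0.05, and from 34 to 120 and 32 to 100 when 1 mouse was left out, the lowest without mouse 113. It was 243 and 170 with DESeq2. The cause of these shifts was not tested.

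Without the mouse as a block, 2475 genes were higher and 2363 lower in STAT5 cKO, with 4777 of the 5130 called genes shared, and the genotypes differed for 99 and 71 genes. The values without the block that changed the call of a gene named in the report are given beside it, and those of the other differences between genotypes that were lost are counted above. In DESeq2, Arg1 (adjusted p = 0.221), Ccl5 (0.0733) and Gprc5c (0.0597), and the difference of Gprc5c between the genotypes (0.0204), did not pass. Over all alternatives, list medians moved by more than the spread between mice in 36 cases and by less in 355. Levels under the floor of 3 counts, or 0.131 to 0.149 CPM, were not detectable, and with 2 fl/fl mice a difference between the genotypes is placed less precisely than the response itself.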
